A study of Mus musculus with 15 samples.

Results

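Voltage-gated sodium, calcium and potassium channel genes, together with the other potassium channel genes, were described across 12 mouse liver tumours and 3 normal livers. The members were all genes of the count table whose symbols begin with Scn and a number followed by a or b, with Cacna1, Cacna2d, Cacnb or Cacng, or with Kcn. There were 134 of them among 23284 genes. Bulk poly-A RNA was sequenced to ask how Hmgb1, a chromatin protein that dying cells release as an alarm signal, bears on liver cancer. The Hmgb1-deleted tumours (n = 6) came from HMGB1fl/fl mice expressing Albumin-Cre, in which the Albumin promoter drives Cre in liver epithelium and leaves Hmgb1 intact in the other cells of the tissue. The floxed tumours (n = 6) came from Hgmb1fl/fl mice with no Cre named. Mice of both tumour groups were injected on day 15 of life with 25 mg/kg of diethylnitrosamine, a mutagen. From week 8 they then received carbon tetrachloride, which injures hepatocytes, each week for 15 weeks at 0.5 µl/g in corn oil. The normal livers (n = 3) were from C57Bl/6 mice, with neither toxin nor floxed alleles named for them, so that tumour state, toxin exposure and allele cannot be told apart in a comparison with normal liver. Ages at collection are not given in the labels, which also do not say whether tumours shared a mouse or a litter, and p-values therefore reflect only how far these libraries varied.

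In excitable cells, voltage-gated sodium channels open on depolarization and carry the rising phase of the action potential, and voltage-gated calcium channels turn depolarization into calcium entry. Each has a large pore-forming subunit that carries the voltage sensors, with smaller accessory subunits that set its trafficking and gating. Potassium channels let potassium leave the cell and so set the resting potential, repolarize the membrane and take part in volume control. Hepatocytes fire no action potentials. They use potassium conductances for volume regulation and for the electrical driving force behind transport, while voltage-gated sodium and calcium channels are best known from neurons, muscle and endocrine cells.

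Hmgb1 itself measured 9.71 to 17.2 CPM (reads of the gene scaled to a common library total, after TMM adjustment between libraries) in Hmgb1-deleted tumours, 23.2 to 31.5 CPM in floxed tumours, and 19.1, 22.0 and 30.9 CPM in normal livers. It was lower in Hmgb1-deleted than in floxed tumours (log2 fold change -0.90 ± 0.14 SE, adjusted p = 0.00509), with no overlap between the groups. Libraries held 18973246 to 26293378 counts in Hmgb1-deleted tumours, 20191452 to 30929442 in floxed tumours and 23193714 to 26997782 in normal livers. A gene with 0 counts could therefore reach 0.111 to 0.168 CPM, depending on the library, by counting error alone. Hepatocyte markers summed to 71861 to 172878 CPM in Hmgb1-deleted tumours, 106944 to 281646 CPM in floxed tumours and 116262 to 146813 CPM in normal livers. Alb made up most of each sum. Against normal liver, 1 of these 8 markers was higher and 3 lower in floxed tumours (adjusted p under 0.05), beside 24.9% and 23.8% of all genes. In Hmgb1-deleted tumours 0 were higher and 2 lower, beside 18.1% and 16.6%. Mean Apoa1 was 12485 CPM in Hmgb1-deleted tumours, 24982 CPM in floxed tumours and 8133 CPM in normal livers. Mean Cyp2e1 was 2836, 588 and 9731 CPM in the same order. Floxed tumour 5 stood apart, with 715 CPM over 9 smooth muscle and stellate cell markers, against 143 to 262 CPM in the other floxed tumours. Of its 715 CPM, 425 CPM were Col1a1. It also had 518 CPM over 7 endothelial markers, against 236 to 305 CPM.

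Most channel genes were low in every group. Of the 134 members, 3 had 0 counts in all 15 libraries, 48 were high enough to be tested in at least 1 of the 3 comparisons and 86 in none. Among those 86, 84 stayed under 1 CPM in every library. The exceptions were Kcnh7, a neuronal delayed rectifier relative, with up to 1.68 CPM, and Kcnk1, a weakly rectifying background channel, with up to 1.40 CPM.

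Between the tumour groups, 5 members were lower in Hmgb1-deleted than in floxed tumours, and 2 low-level potassium channel genes were higher. Among those lower were the sodium channel pore gene Scn8a and the calcium channel pore genes Cacna1b and Cacna1c. These 3 were higher in floxed tumours than in normal liver. Mean levels in Hmgb1-deleted tumours were 2.70% of the floxed mean for Cacna1b, 14.1% for Cacna1c and 36.2% for Scn8a. Of 39 tested members, 7 (17.9%) were called, beside 7.78% of all 13433 genes tested (edgeR quasi-likelihood test, adjusted p under 0.05). Among them 5 (12.8%) were called lower, beside 3.33% of all genes, and 2 (5.13%) higher, beside 4.45%. Groups did not overlap for 4 of the 39 members in the lower direction (10.3%, beside 2.15% of all genes) and for 0 in the higher direction (beside 2.85% of all genes). The median log2 fold change of the tested members was -0.42, against 0.02 over all tested genes, and it was -0.10 without floxed tumour 5.

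**Figure D1:**
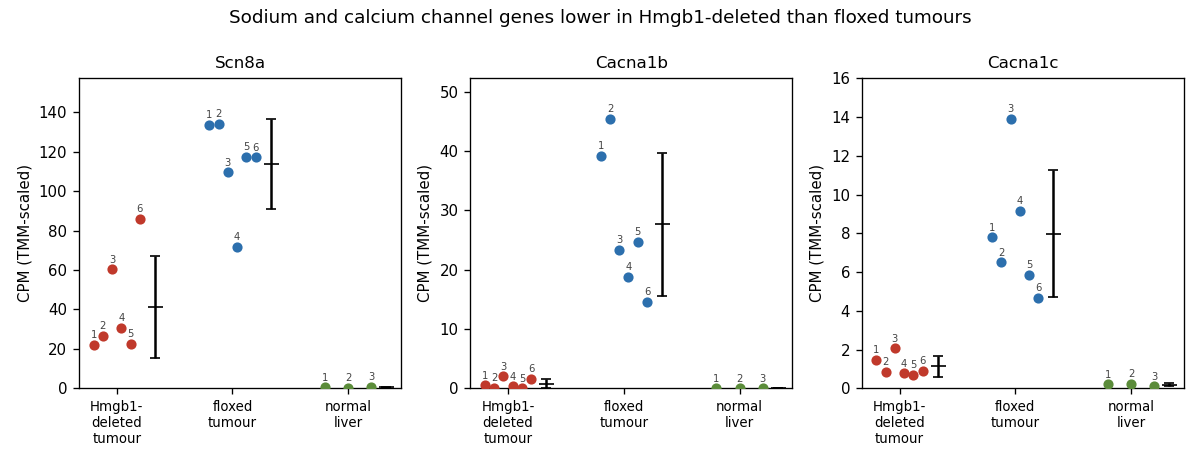
CPM of Scn8a, Cacna1b and Cacna1c, 1 panel each with its own linear axis, in Hmgb1-deleted tumours, floxed tumours and normal livers. Points are single libraries with their replicate number, bars are the mean ± SD with the lower end cut at 0. Hmgb1-deleted tumour 6 at 85.8 CPM and floxed tumour 4 at 71.8 CPM overlap for Scn8a; the tumour groups are separate in the other 2 panels.

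Scn8a encodes the pore subunit of the sodium channel found at nodes of Ranvier and axon initial segments. It had 22.0, 26.5, 60.3, 30.6, 22.4 and 85.8 CPM in Hmgb1-deleted tumours 1 to 6, against 133, 134, 109.5, 71.8, 117 and 117 CPM in floxed tumours 1 to 6. The normal livers had 0.445, 0.287 and 0.644 CPM. Every tumour thus stood far above every normal liver, and of the Hmgb1-deleted tumours only number 6 reached the range of the floxed ones, at their lowest member. The means were 41.3 ± 26.1 CPM in Hmgb1-deleted tumours (SD, n = 6), 114 ± 22.9 CPM in floxed tumours (SD, n = 6) and 0.459 ± 0.179 CPM in normal livers (SD, n = 3). The log2 fold change was -1.45 ± 0.34 SE for Hmgb1-deleted against floxed tumours (adjusted p = 0.0231), 7.98 ± 0.34 for floxed tumours against normal liver (adjusted p = 5.06e-07) and 6.51 ± 0.70 in Hmgb1-deleted tumours against normal liver (adjusted p = 0.00072). The call between the tumour groups ended when Hmgb1-deleted tumour 4 was left out (adjusted p = 0.0527), and when numbers 2 and 5 were left out together (adjusted p = 0.0546).

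Cacna1b encodes the pore of the N-type calcium channel, which triggers transmitter release at nerve terminals. It differed most between the tumour groups of the 3 genes, so the 250 bases before its RefSeq transcription start are shown (GRCm38.p6, chr2:24763153-24763402, minus strand), with capitals marking GGGCGG, the box bound by SP and KLF factors, and ATTGG, the reverse complement of CCAAT.
Cacna1b promoter: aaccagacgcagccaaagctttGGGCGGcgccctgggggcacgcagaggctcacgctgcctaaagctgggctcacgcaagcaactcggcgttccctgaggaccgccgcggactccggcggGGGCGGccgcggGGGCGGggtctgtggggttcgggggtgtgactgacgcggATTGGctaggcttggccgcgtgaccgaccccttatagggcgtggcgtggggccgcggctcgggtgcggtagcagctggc
The sequence was 72% G and C, against a median of 52.4% and a 95th percentile of 73.6% over all promoters, and held 29 CpG dinucleotides, 3 GGGCGG boxes and 1 CCAAT box. Within 250 bases before to 50 after the start, GGGCGG occurred in 35.7% of 32851 mouse promoters and CCAAT in 37.4%. These windows were searched on both strands, also for TATAAA (in 13.6% of promoters), TTCAGCACC and GGACAG (the left and right parts of the REST site, in 0.371% and 22.2%), TGANTCA (AP-1, 7.81%), TGTTTAC (FOXA, 3.65%), the direct repeat of HNF4 (0.0396%) and CACGTG (E-box, 7.15%). None of these 7 occurred in the printed bases. A match describes letters in this window and not binding, which was not measured here.

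Cacna1b counts were 0.519, 0.0763, 2.02, 0.312, 0 and 1.56 CPM in Hmgb1-deleted tumours 1 to 6, against 39.2, 45.5, 23.3, 18.8, 24.8 and 14.6 CPM in floxed tumours 1 to 6. All 3 normal livers had 0 counts. No Hmgb1-deleted tumour came near the lowest floxed tumour, and numbers 3 and 6 were the highest of their group, as they were for Scn8a. The means were 0.748 ± 0.840 CPM in Hmgb1-deleted tumours and 27.7 ± 12.1 CPM in floxed tumours (SD, n = 6 each). The log2 fold change of -5.23 ± 0.74 (adjusted p = 0.00293) was the third-lowest of the 13433 genes tested. Against a floor of 3 counts over the normal livers, Cacna1b was at least 639.7-fold higher in floxed tumours than in normal liver (adjusted p = 2.27e-05). For Hmgb1-deleted tumours against normal liver the bound was 17.3-fold and the test did not pass (adjusted p = 0.0551); it passed under 8 of 15 alternatives.

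Cacna1c encodes the pore of the L-type calcium channel of heart and smooth muscle. RefSeq gives it 3 transcription starts and gives Scn8a 2. The 250 bases before its first and second starts are shown (GRCm38.p6, chr6:119196410-119196659 and chr6:119108496-119108745, both minus strand). Beside them are those before the first Scn8a start (chr15:100870395-100870644, plus strand), since the genes share a direction between the tumour groups. How far the 2 genes differ in these bases depends on which starts are set side by side. Capitals mark the GGGCGG box.
Cacna1c promoter, first start: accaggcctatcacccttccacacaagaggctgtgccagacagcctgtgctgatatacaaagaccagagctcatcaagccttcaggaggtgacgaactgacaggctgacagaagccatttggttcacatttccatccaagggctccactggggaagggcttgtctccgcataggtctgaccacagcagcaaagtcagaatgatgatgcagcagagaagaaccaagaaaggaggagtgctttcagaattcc
Cacna1c promoter, second start: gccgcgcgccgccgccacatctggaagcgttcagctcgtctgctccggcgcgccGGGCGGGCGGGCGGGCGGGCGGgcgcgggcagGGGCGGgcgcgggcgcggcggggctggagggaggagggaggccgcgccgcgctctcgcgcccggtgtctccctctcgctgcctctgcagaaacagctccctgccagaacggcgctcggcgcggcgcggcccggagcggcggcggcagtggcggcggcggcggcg
Scn8a promoter, first start: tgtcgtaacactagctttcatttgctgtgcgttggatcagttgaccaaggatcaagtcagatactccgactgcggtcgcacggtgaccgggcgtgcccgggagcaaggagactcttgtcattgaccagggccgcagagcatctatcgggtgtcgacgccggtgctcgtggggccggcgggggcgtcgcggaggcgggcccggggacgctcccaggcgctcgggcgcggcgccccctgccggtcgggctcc
The window at the first Cacna1c start was 51.6% G and C with 2 CpG dinucleotides and none of the 9 motifs. At the second start it was 82.8% G and C with 48 CpG dinucleotides and 6 GGGCGG matches, some of them overlapping. The Scn8a window was 68% G and C with 30 CpG dinucleotides and none of the 9 motifs. Of the windows not printed, that of the third Cacna1c start was 50.4% G and C with 5 CpG dinucleotides and a CCAAT box. That of the second Scn8a start was 53.2% G and C with 9 CpG dinucleotides. It also had a GGACAG match (the right part of the REST site, in 22.2% of promoters) from position 8 after the start. Gene counts do not show which start was used.

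In Hmgb1-deleted tumours 1 to 6 Cacna1c had 1.48, 0.839, 2.07, 0.780, 0.681 and 0.906 CPM, against 7.79, 6.50, 13.9, 9.18, 5.85 and 4.68 CPM in floxed tumours 1 to 6. Normal livers had 0.202, 0.246 and 0.0991 CPM. The 3 groups did not overlap, and number 3 was the highest library within both tumour groups. The means were 1.13 ± 0.541 CPM in Hmgb1-deleted tumours, 7.99 ± 3.30 CPM in floxed tumours (SD, n = 6 each) and 0.182 ± 0.0754 CPM in normal livers (SD, n = 3). The log2 fold change was -2.82 ± 0.35 for Hmgb1-deleted against floxed tumours (adjusted p = 0.00136), 5.40 ± 0.49 for floxed tumours against normal liver (adjusted p = 2.09e-05) and 2.58 ± 0.52 in Hmgb1-deleted tumours against normal liver (adjusted p = 0.00642). Dcp1b, an mRNA decapping gene, overlaps Cacna1c, and without a stated strand setting their shared reads cannot be told apart. It had log2 fold changes of -0.64 (adjusted p = 0.0535) for Hmgb1-deleted against floxed tumours and 0.74 (adjusted p = 0.0118) for floxed tumours against normal liver.

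Cacna1b and Cacna1c kept their lower call between the tumour groups under all 23 alternatives run for them, and Scn8a under 21 of 23. Genes that flank these 3 in GRCm38.p6 and were high enough to test, looked at after the values were seen, were not called between the tumour groups. They were Slc4a8 and Fignl2 beside Scn8a, Ehmt1 beside Cacna1b, and Ankrd26 beside Cacna1c.

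Neuronal and neuroendocrine markers were also measured, since these channels are best known from excitable cells. The 18 genes of that list summed to 15.4 to 21.1 CPM (median 18.5) in Hmgb1-deleted tumours, 17.1 to 30.7 CPM (median 20.3) in floxed tumours and 29.5 to 36.6 CPM (median 31.9) in normal livers. Syt1, a calcium sensor of vesicle release and the most abundant of the 18, had 4.35 to 10.3 CPM in Hmgb1-deleted tumours, 4.99 to 18.0 CPM in floxed tumours and 22.0 to 31.8 CPM in normal livers. The other 17, summed without it after the values were seen, gave 8.40 to 14.002 CPM in Hmgb1-deleted tumours, 9.17 to 24.5 CPM in floxed tumours and 4.81 to 7.54 CPM in normal livers. In that sum all 12 tumours lay above the 3 normal livers. Of 6 markers tested between the tumour groups, 0 were called. Against normal liver, 3 of 8 tested were higher and 1 lower in Hmgb1-deleted tumours (median log2 0.63), and 3 of 6 were higher and 2 lower in floxed tumours (median log2 0.65). Over all genes the shares higher and lower were 18.1% and 16.6% in Hmgb1-deleted tumours, and 24.9% and 23.8% in floxed tumours. Nefm was at 0 in every Hmgb1-deleted tumour, and Chga, Vgf, Nefl and Elavl4 were at 0 in every normal liver. The 9 smooth muscle and stellate cell markers summed to 119 to 230 CPM in Hmgb1-deleted tumours, 143 to 715 CPM in floxed tumours and 112 to 148 CPM in normal livers, and 0 of 8 tested were called between the tumour groups. The 7 endothelial markers summed to 158 to 267 CPM in Hmgb1-deleted tumours, 236 to 518 CPM in floxed tumours and 144 to 236 CPM in normal livers, and 1 of 7 was called lower in Hmgb1-deleted tumours. The part of other cell types in the channel differences was not tested, and in bulk tissue fewer cells of a type and less RNA per cell cannot be told apart.

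The sodium and calcium channel genes described next did not pass between the tumour groups. Scn7a, which encodes a sodium channel relative of glia that is gated by sodium and not by voltage, had 0.288 to 7.63 CPM (median 1.01) in Hmgb1-deleted tumours, 0.435 to 7.13 CPM (median 1.48) in floxed tumours and 0.123 to 0.347 CPM in normal livers. The accessory gene Scn3b had 0.387 ± 0.103 CPM in Hmgb1-deleted tumours, 0.778 ± 0.498 CPM in floxed tumours (SD, n = 6 each) and 0.0981 ± 0.0591 CPM in normal livers (SD, n = 3). Both were higher than normal liver in Hmgb1-deleted tumours (Scn7a log2 3.33, adjusted p = 0.046; Scn3b log2 1.92, adjusted p = 0.0138) and in floxed tumours (log2 3.69, adjusted p = 0.0123; log2 2.93, adjusted p = 0.00832). The Scn7a call in Hmgb1-deleted tumours held under 14 of 20 alternatives (adjusted p up to 0.145) and ended without Hmgb1-deleted tumour 1 or without any 1 of the 3 normal livers. In floxed tumours it held under 16 of 18 and ended without normal liver 1 or 2. The Scn3b call in Hmgb1-deleted tumours held under 12 of 15 (adjusted p up to 0.0734) and ended without normal liver 1 or 3. Cacna1d, the other L-type pore gene tested and one that works in endocrine cells and the sinoatrial node, had 4.69 ± 1.63 CPM in Hmgb1-deleted tumours, 2.68 ± 1.07 CPM in floxed tumours and 4.81 ± 0.602 CPM in normal livers, and passed in no comparison. Its log2 value between the tumour groups was 0.82 ± 0.32 (adjusted p = 0.14), opposite in sign to that of Cacna1c.

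Of the accessory calcium channel genes, 3 members were called higher in both kinds of tumour than in normal liver. They were 2 of 2 tested extracellular (alpha2-delta) genes and 1 of 3 intracellular (beta) genes, with 0 of 1 gamma gene. Over all genes 24.9% were called higher in floxed tumours and 18.1% in Hmgb1-deleted tumours. Cacnb3, which encodes an intracellular subunit that carries the pore to the membrane, had 1.32 to 8.70 CPM (median 3.97) in Hmgb1-deleted tumours, 2.32 to 10.7 CPM (median 4.34) in floxed tumours and 0.648 to 0.793 CPM in normal livers. All 12 tumours exceeded all 3 normal livers (Hmgb1-deleted against normal log2 2.49 ± 0.66, adjusted p = 0.018; floxed against normal 3.01 ± 0.56, adjusted p = 0.00148). Cacna2d4, an extracellular accessory gene of retinal photoreceptors, had 0.222, 1.60, 1.70, 2.39, 4.32 and 0.906 CPM in Hmgb1-deleted tumours 1 to 6, against 0.290, 0.952, 0.324, 0.870, 0.195 and 1.0 CPM in floxed tumours 1 to 6. The normal livers held 1 count of it. The tumour groups overlapped and did not pass against each other (adjusted p = 0.121), while pooled counts were 128-fold higher in Hmgb1-deleted tumours than in normal liver (95% counting interval 22.7 to 5069, adjusted p = 0.00587) and 41.9-fold higher in floxed tumours (7.30 to 1675, adjusted p = 0.00314). Its relative Cacna2d1 had log2 values of 1.30 ± 0.35 in Hmgb1-deleted tumours against normal liver (adjusted p = 0.0188) and 1.38 ± 0.43 in floxed tumours against normal liver (adjusted p = 0.021). In Hmgb1-deleted tumours the calls of Cacnb3 and Cacna2d1 each held under 17 of 20 alternatives (adjusted p up to 0.0756 and 0.0763), and in floxed tumours that of Cacna2d1 held under 15 of 18 (up to 0.0740). All of these losses came from leaving out 1 normal liver, whichever it was. Cacnb4, another intracellular subunit gene, went the other way in floxed tumours, at 2.90 ± 0.482 CPM against 5.01 ± 1.97 CPM in normal livers (log2 -0.77 ± 0.27, adjusted p = 0.0376). Among the T-type pore genes only Cacna1h was tested, and it was higher in floxed tumours than in normal liver (0.663 ± 0.658 CPM, against 3 counts over the normal livers; pooled ratio 17.0-fold, counting interval 5.63 to 83.7, adjusted p = 0.034). Cacng7, from the family of gamma subunits and AMPA receptor partners, passed in no comparison.

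**Figure D2:**
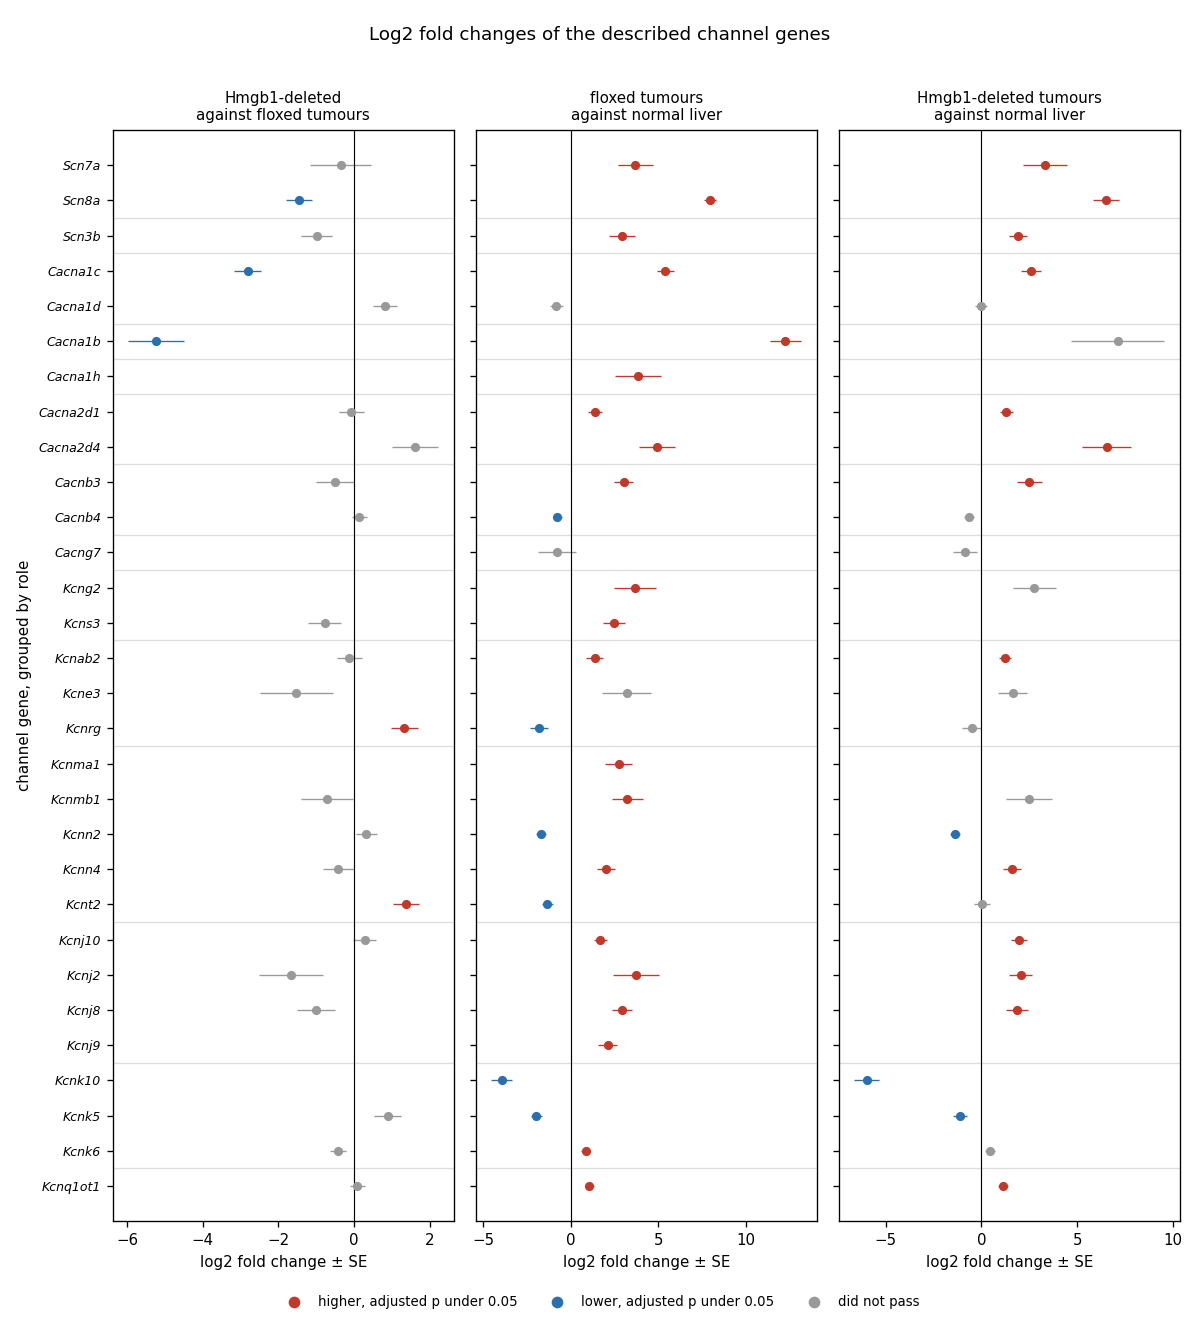
Log2 fold changes ± SE of the described members, in 3 panels (Hmgb1-deleted against floxed tumours, floxed tumours against normal liver, Hmgb1-deleted tumours against normal liver), each with its own axis and with genes grouped by role. Red and blue mark members called higher or lower at an adjusted p under 0.05, and grey those that were not; the points of genes with 0 to 3 counts in normal liver or tumour (Cacna1b, Cacna2d4, Cacna1h, Kcnk10) are fitted values that depend on the prior count.

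Against normal liver the tested channel genes were called higher more often than lower. In floxed tumours 30 of 46 tested members (65.2%) were called, beside 48.7% of all 13784 genes tested. There 23 (50%) were higher, beside 24.9% of all genes, and 7 (15.2%) lower, beside 23.8% of all genes. Groups did not overlap for 20 members in the higher direction (43.5%, beside 22.4% of all genes) and 6 in the lower (13.0%, beside 23.8%). In Hmgb1-deleted tumours 18 of 43 tested members (41.9%) were called, beside 34.7% of all 13784 genes. There 15 (34.9%) were higher than in normal liver, beside 18.1% of all genes, and 3 (6.98%) lower, beside 16.6%. The median log2 fold change of tested members was 0.89 in Hmgb1-deleted tumours, against 0.05 over all genes, and 1.22 in floxed tumours, against 0.06 over all genes. Setting Cacna1b at its bound could not move either member median, since Cacna1b stays above the median either way. A member passes the filter on low counts when it is high in either group compared, and the 2 comparisons share the normal livers. One near 0 in normal liver, such as Cacna1b, was tested only because tumours were high, and could only be higher. One near 0 in tumours, such as Kcnk10, could only be lower. Of the 134 members 46 and 43 were tested, against 13784 of 23284 genes. The member shares and medians include this effect of the filter, whose size was not tested. Calls for Hmgb1-deleted tumours fell to 7, 9 and 8 of the members without normal liver 1, 2 and 3 in turn, against 18 with all 3. Some markers of other cell types were also higher in tumours than in normal liver. Cholangiocyte markers were called higher in 2 of 6 tested in Hmgb1-deleted tumours (median log2 1.62) and 4 of 7 in floxed tumours (1.87). Their summed levels were 206 to 6286 CPM in Hmgb1-deleted tumours, 142 to 1774 CPM in floxed tumours and 69.4 to 80.6 CPM in normal livers. Spp1 made up most of that sum in every library but floxed tumour 1. It had 189 to 6186 CPM in Hmgb1-deleted tumours, 40.9 to 1677 CPM in floxed tumours and 55.9 to 70.3 CPM in normal livers. In the same order of groups, mean Krt19 was 1.59, 2.04 and 1.61 CPM, and mean Prom1 was 11.9, 50.7 and 1.45 CPM. Neutrophil markers were called higher in 2 of 4 tested in Hmgb1-deleted tumours (median log2 1.53) and 5 of 5 in floxed tumours (2.54), with sums of 10.98 to 18.9 CPM in Hmgb1-deleted tumours, 5.44 to 38.1 CPM in floxed tumours and 3.93 to 5.46 CPM in normal livers. In Hmgb1-deleted tumours 3 of 8 smooth muscle and stellate cell markers were called higher and 1 lower, with 4 of 8 lymphocyte and 1 of 7 endothelial markers higher. In floxed tumours 3 of 9 smooth muscle and stellate cell, 3 of 8 lymphocyte and 2 of 7 endothelial markers were called higher. Of the cholangiocyte, lymphocyte, neutrophil, smooth muscle and endothelial lists, none had a marker at 0 in every library of a group, and their part in the channel counts was not tested.

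Inward rectifier potassium channels, which hold the resting potential near that of potassium, were called higher than in normal liver in 3 of 5 tested members in Hmgb1-deleted tumours, beside 18.1% of all genes, and in 4 of 5 in floxed tumours, beside 24.9%. Kcnj8, the pore of the ATP-sensitive channel of vascular muscle and pericytes, had 8.63, 7.02, 42.3, 11.4, 10.1 and 14.5 CPM in Hmgb1-deleted tumours 1 to 6, against 14.4, 20.1, 15.6, 25.6, 74.9 and 41.1 CPM in floxed tumours 1 to 6. Normal livers had 3.97, 4.88 and 4.11 CPM. Every tumour exceeded every normal liver, with Hmgb1-deleted tumour 3 and floxed tumour 5 the highest of their groups. Log2 fold changes against normal liver were 1.87 ± 0.58 in Hmgb1-deleted tumours (adjusted p = 0.034) and 2.91 ± 0.57 in floxed tumours (adjusted p = 0.00225). The call in Hmgb1-deleted tumours held under 16 of 20 alternatives and ended without any 1 of the normal livers (adjusted p up to 0.116). Kcnj10, a channel of glia and kidney epithelium, had 2.97 to 8.93 CPM (median 5.11) in Hmgb1-deleted tumours, 2.56 to 6.39 CPM (median 4.62) in floxed tumours and 1.17 to 1.76 CPM in normal livers. It was higher than normal liver in Hmgb1-deleted tumours (log2 1.97 ± 0.41, adjusted p = 0.00719) and in floxed tumours (log2 1.69 ± 0.35, adjusted p = 0.00284). Kcnj9, a partner subunit of G-protein-gated channels, stayed low, with 0.508 ± 0.212 CPM in floxed tumours against 0.115 ± 0.0133 CPM in normal livers (log2 2.1 ± 0.55, adjusted p = 0.00982).

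Floxed tumour 5 stood far above the other floxed tumours for some other potassium channel genes. Kcnj2, the classical inward rectifier of heart and skeletal muscle, had 4.26, 4.58, 2.12, 1.98, 8.37 and 1.52 CPM in Hmgb1-deleted tumours 1 to 6, against 2.85, 6.72, 3.72, 4.09, 54.7 and 1.04 CPM in floxed tumours 1 to 6, and 0.607, 1.23 and 0.942 CPM in normal livers. Its log2 fold change for floxed tumours against normal liver was 3.74 ± 1.32 (adjusted p = 0.0382), and 2.0 ± 0.55 (adjusted p = 0.0123) without floxed tumour 5. In Hmgb1-deleted tumours it was 2.06 ± 0.60 (adjusted p = 0.0259), a call that held under 16 of 20 alternatives. Both Kcnj2 calls ended without any 1 of the normal livers (adjusted p up to 0.106 in Hmgb1-deleted and 0.123 in floxed tumours). Kcne3, a small accessory subunit of epithelial potassium channels, had 0.743 to 11.2 CPM in Hmgb1-deleted tumours, 59.1 CPM in floxed tumour 5, 1.72 to 5.71 CPM in the other floxed tumours and 1.31 to 1.39 CPM in normal livers, and passed in no comparison. Kcne4, an inhibitory relative named for this tumour after its values were seen, had 6.39 CPM in floxed tumour 5 and 0.0800 to 0.261 CPM in the other floxed tumours. Abcc9, the sulphonylurea receptor that partners Kcnj8 in vascular muscle, had 118 CPM in that tumour and 14.2 to 23.8 CPM in the other floxed tumours. Hmgb1-deleted tumours had 16.8 to 23.9 CPM of Abcc9, and normal livers 22.1 to 30.9 CPM. Unlike Kcnj8, Abcc9 was lower in Hmgb1-deleted tumours than in normal liver (log2 -0.49 ± 0.15, adjusted p = 0.0275). In floxed tumours against normal liver it did not pass (log2 0.40 ± 0.67, adjusted p = 0.643). The smooth muscle and stellate cell sum and the endothelial sum were highest in the same library. Of its 715 CPM in the first of these, 425 CPM were Col1a1 and 81.6 CPM Pdgfrb. Acta2 and Des were also highest there among the floxed tumours, while Tagln, Myh11, Cnn1 and Reln were higher in floxed tumour 6. The part of these cell types in the channel values was not tested.

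**Figure D3:**
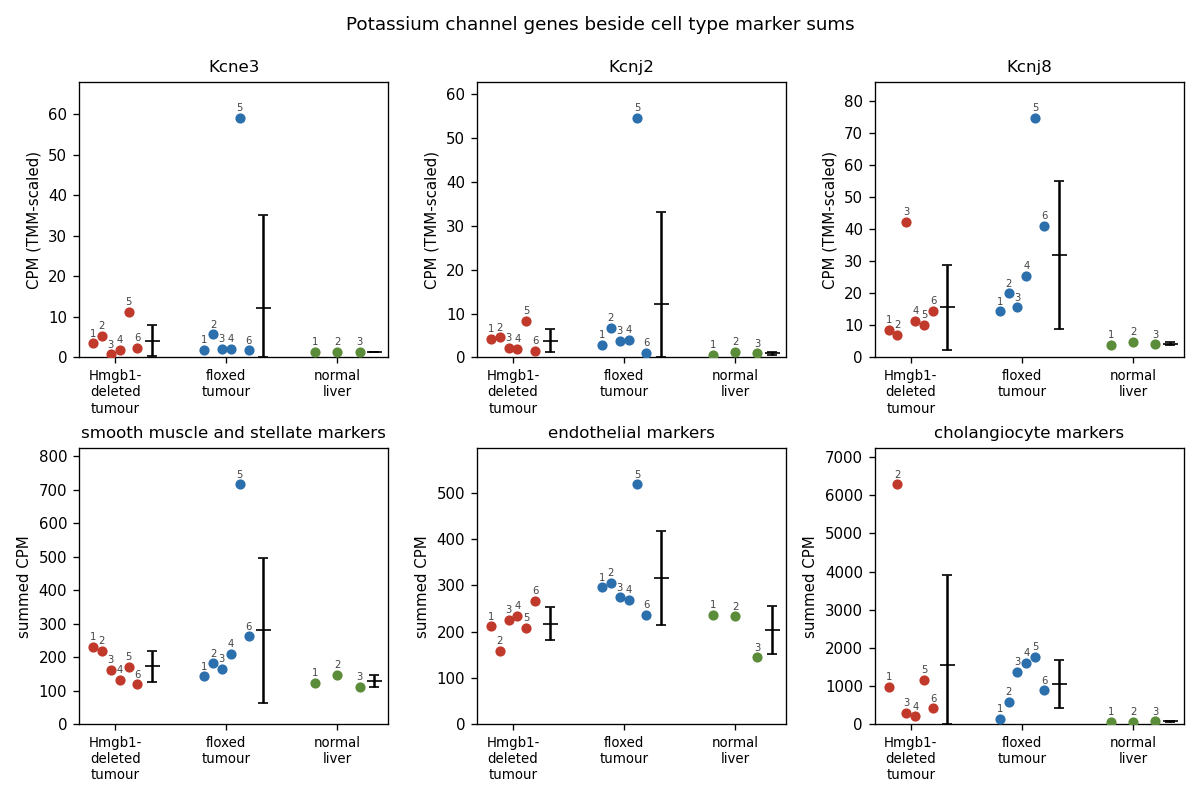
CPM of Kcne3, Kcnj2 and Kcnj8 (upper row) and summed CPM of smooth muscle and stellate, endothelial and cholangiocyte markers (lower row) by group; points are numbered libraries, bars the mean ± SD with the lower end cut at 0. Floxed tumour 5 is the highest floxed library in all 6 panels, at 59.1, 54.7 and 74.9 CPM for the channel genes and 715 CPM for the smooth muscle and stellate markers.

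Tandem-pore and calcium- or sodium-activated potassium channel genes moved in both directions against normal liver. In floxed tumours 2 of 4 tested tandem-pore genes were lower and 1 higher, and 2 of 6 activated-channel genes were lower and 3 higher. Over all genes 23.8% were lower and 24.9% higher there. In Hmgb1-deleted tumours 2 of 4 were lower and 0 higher, and 1 of 5 lower and 1 higher, beside 16.6% and 18.1% of all genes. Kcnk5, Kcnn2 and Kcnk10 were lower in both kinds of tumour. Kcnk5, an alkaline-activated background channel of epithelia that responds to cell swelling, had 10.9, 13.2, 27.6, 27.4, 19.6 and 7.91 CPM in Hmgb1-deleted tumours 1 to 6, against 4.64, 12.2, 6.80, 16.0, 6.90 and 11.7 CPM in floxed tumours 1 to 6. Normal livers had 42.7, 36.3 and 36.5 CPM, above all 12 tumours. Kcnk5 fell to 17.8 ± 8.46 CPM in Hmgb1-deleted tumours (SD, n = 6), against 38.5 ± 3.65 CPM in normal livers (SD, n = 3; log2 -1.10 ± 0.36, adjusted p = 0.0414), and to 9.70 ± 4.28 CPM in floxed tumours (log2 -1.97 ± 0.32, adjusted p = 0.000699). Against each other the tumour groups did not pass (log2 0.89 ± 0.36, adjusted p = 0.151). The call in Hmgb1-deleted tumours held under 11 of 20 alternatives, with adjusted p up to 0.139, and ended without Hmgb1-deleted tumour 1, 2 or 5 or any 1 of the normal livers.

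Kcnn2, a small-conductance calcium-activated channel, had 4.96, 8.05, 10.9, 10.3, 7.91 and 11.9 CPM in Hmgb1-deleted tumours 1 to 6, against 8.03, 7.0, 11.1, 6.61, 3.51 and 7.16 CPM in floxed tumours 1 to 6. Normal livers had 22.8, 20.4 and 28.2 CPM, again above all 12 tumours. The log2 fold change against normal liver was -1.38 ± 0.24 in Hmgb1-deleted tumours (adjusted p = 0.00407) and -1.70 ± 0.27 in floxed tumours (adjusted p = 0.000594). Kcnk10, a mechanically gated background channel, held 1 count over the Hmgb1-deleted tumours and 6 over the floxed tumours, against 55 over the 3 normal livers, where it had 0.743 to 0.820 CPM. Its pooled counts were 113-fold lower in Hmgb1-deleted tumours than in normal liver (counting interval 19.4 to 4532, adjusted p = 0.000729), and its log2 fold change in floxed tumours was -3.95 ± 0.60 (adjusted p = 0.00046).

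**Figure D4:**
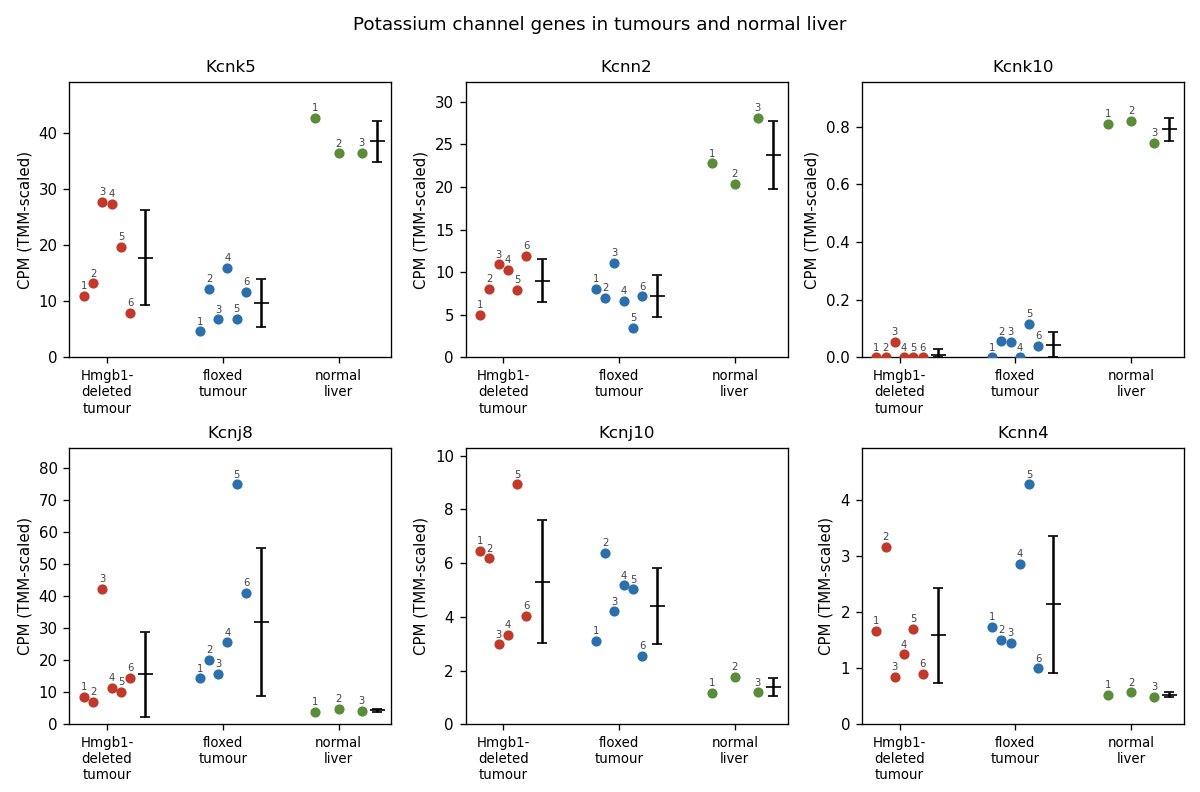
CPM of Kcnk5, Kcnn2, Kcnk10, Kcnj8, Kcnj10 and Kcnn4, 1 panel each with its own linear axis, by group; points are numbered libraries and bars the mean ± SD with the lower end cut at 0. For the upper 3 genes all 12 tumours lie below the 3 normal livers, at 36.3 to 42.7 CPM for Kcnk5, and for the lower 3 genes all 12 lie above them.

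Kcnn4, the intermediate-conductance calcium-activated channel of blood cells and epithelia, moved in the direction opposite to Kcnn2. It had 0.849 to 3.17 CPM (median 1.46) in Hmgb1-deleted tumours, 1.0 to 4.29 CPM (median 1.62) in floxed tumours and 0.496 to 0.574 CPM in normal livers, with no overlap between tumours and normal livers. Log2 fold changes against normal liver were 1.59 ± 0.47 in Hmgb1-deleted tumours (adjusted p = 0.027) and 2.02 ± 0.51 in floxed tumours (adjusted p = 0.00831). Kcnab2, a cytoplasmic accessory subunit with an aldo-keto reductase fold, was higher in Hmgb1-deleted tumours than in normal liver (log2 1.23 ± 0.32, adjusted p = 0.0171) and in floxed tumours (log2 1.37 ± 0.48, adjusted p = 0.0378). Kcns3 and Kcng2, silent subunits that form no channel alone, were higher in floxed tumours than in normal liver (Kcns3 log2 2.46 ± 0.61, adjusted p = 0.00782; Kcng2 log2 3.67 ± 1.18, adjusted p = 0.0257). Kcnq1ot1, a long non-coding RNA antisense to Kcnq1 that silences imprinted neighbours, was higher in Hmgb1-deleted tumours (log2 1.13 ± 0.26, adjusted p = 0.0105) and in floxed tumours (log2 1.05 ± 0.25, adjusted p = 0.00601) than in normal liver. Its reads cannot be told apart from those of Kcnq1, which passed in no comparison. Overlapping protein-coding genes were likewise not separable from Kcnab2 (Nphp4), Cacna2d4 (Lrtm2), Cacna1d (Chdh and Dcp1a) and Cacna1h (Tpsg1). In Hmgb1-deleted tumours against normal liver, the calls of Kcnn4 and Kcnab2 each held under 16 of 20 alternatives (adjusted p up to 0.0932 and 0.0642), ending without any 1 of the normal livers, and that of Kcnq1ot1 held under 19 of 20, ending without normal liver 1 (adjusted p = 0.0529). In floxed tumours against normal liver, the call held under 10 of 18 alternatives for Kcnab2, 11 of 18 for Cacnb4, 12 of 17 for Kcnj2, 10 of 14 for Cacna1h and 11 of 14 for Kcng2. Leaving out normal liver 3 ended each of these 5 calls, leaving out normal liver 1 all but that of Cacna1h, and leaving out normal liver 2 all but that of Cacnb4. Those of Kcnab2 and Cacnb4 also ended without floxed tumour 1, 2 or 4, and that of Kcnab2 without floxed tumour 5. Outside the rule for named genes, Kcnma1 and Kcnmb1, pore and accessory genes of the large-conductance calcium-activated channel of smooth muscle, and the tandem-pore gene Kcnk6 were also called higher in floxed tumours than in normal liver (log2 2.73, 3.23 and 0.85).

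The 2 genes called higher in Hmgb1-deleted than in floxed tumours were both low. Kcnt2, a sodium-activated potassium channel, had 1.67, 1.14, 1.43, 1.72, 0.416 and 1.40 CPM in Hmgb1-deleted tumours 1 to 6, against 0.387, 0.336, 0.432, 0.739, 0.468 and 0.60 CPM in floxed tumours 1 to 6. Normal livers had 1.21, 1.19 and 1.44 CPM. Hmgb1-deleted tumour 5 lay within the floxed range and the other 5 above it, near the normal livers. The log2 fold change was 1.38 ± 0.34 for Hmgb1-deleted against floxed tumours (adjusted p = 0.0279), -1.34 ± 0.33 for floxed tumours against normal liver (adjusted p = 0.00694) and 0.03 ± 0.40 in Hmgb1-deleted tumours against normal liver (adjusted p = 0.955). Kcnrg, an inhibitor of voltage-gated potassium channel assembly whose locus overlaps Trim13 and Dleu2, had 0.784 ± 0.258 CPM in Hmgb1-deleted tumours, 0.314 ± 0.153 CPM in floxed tumours and 1.14 ± 0.878 CPM in normal livers. Its log2 fold change was 1.33 ± 0.35 between the tumour groups (adjusted p = 0.0353) and -1.83 ± 0.52 for floxed tumours against normal liver (adjusted p = 0.015), the second of which held under 14 of 16 alternatives and ended without normal liver 3. Both calls between the tumour groups ended when some single libraries were left out, Kcnt2 being called under 14 of 22 alternatives (adjusted p up to 0.184) and Kcnrg under 9 of 22 (up to 0.136).

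Genes of related channel and transport families, outside the members, were read beside them in 6 lists. Between the tumour groups 2 of 10 tested genes of calcium release and store-operated entry were lower in Hmgb1-deleted tumours, as was 1 of 11 TRP and epithelial sodium channel genes. The same comparison had 2 of 6 cyclic-nucleotide-gated, two-pore, sperm and leak channel genes higher. In it 0 were called among 10 chloride channel genes, 16 pump and exchanger genes and 1 partner subunit gene. Over all genes 3.33% were called lower and 4.45% higher between the tumour groups. Trpm4, a calcium-activated cation channel that depolarizes cells, had 3.19, 4.23, 1.70, 1.20, 2.91 and 2.84 CPM in Hmgb1-deleted tumours 1 to 6, against 16.2, 9.02, 9.98, 9.48, 10.6 and 19.2 CPM in floxed tumours 1 to 6. No value overlapped between those groups (log2 -2.20 ± 0.31, adjusted p = 0.00273), and normal livers had 1.09 to 1.34 CPM. Orai2, a plasma membrane calcium channel opened by store depletion, had 1.8 to 3.01 CPM in Hmgb1-deleted tumours, 6.59 to 8.58 CPM in floxed tumours and 0.891 to 1.09 CPM in normal livers (Hmgb1-deleted against floxed log2 -1.58 ± 0.17, adjusted p = 0.000777). Itpr3, a calcium release channel of the endoplasmic reticulum, had 6.84 to 10.4 CPM in Hmgb1-deleted tumours, 9.05 to 26 CPM in floxed tumours and 2.51 to 3.16 CPM in normal livers (Hmgb1-deleted against floxed log2 -0.97 ± 0.21, adjusted p = 0.0176). Trpm4, Orai2 and Itpr3 were thus lower in Hmgb1-deleted than in floxed tumours, and each was higher in floxed tumours than in normal liver (log2 3.41, 2.92 and 2.51). Hcn3, a cation channel opened by hyperpolarization, had 9.78 to 20.7 CPM in Hmgb1-deleted tumours and 4.09 to 9.01 CPM in floxed tumours (log2 1.38 ± 0.23, adjusted p = 0.00611), with normal livers at 4.82, 8.65 and 17.9 CPM. Tpcn1, a cation channel of endolysosomes, had 45.9 ± 6.33 CPM in Hmgb1-deleted tumours and 30.9 ± 2.97 CPM in floxed tumours (SD, n = 6 each; log2 0.58 ± 0.11, adjusted p = 0.00865).

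**Figure D5:**
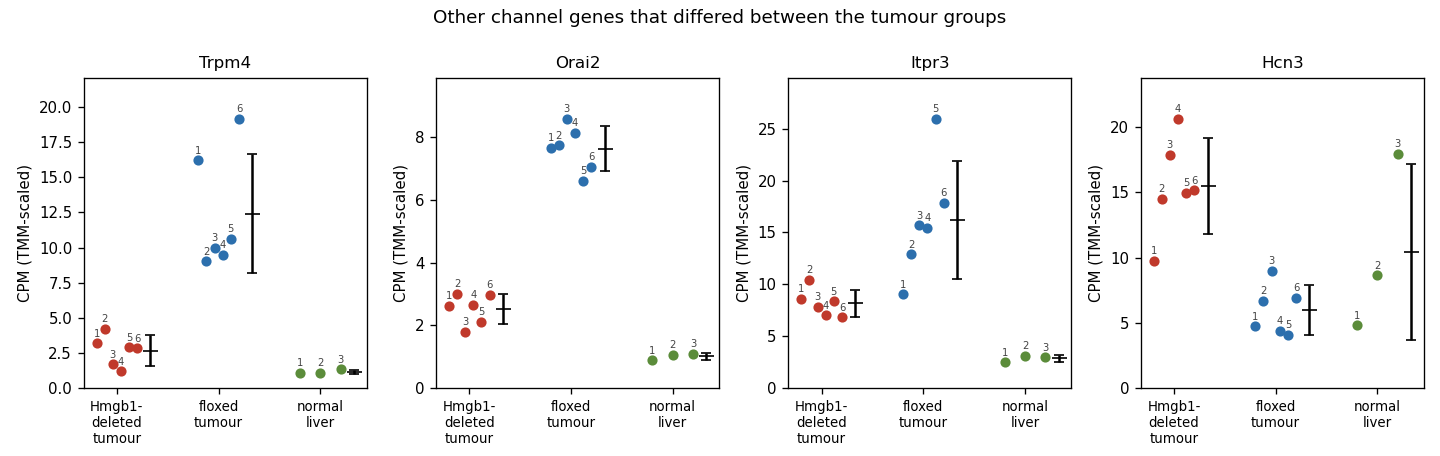
CPM of Trpm4, Orai2, Itpr3 and Hcn3, which are not members, 1 panel each with its own linear axis, by group; points are numbered libraries and bars the mean ± SD. Trpm4, Orai2 and Hcn3 separate the tumour groups, Hcn3 with Hmgb1-deleted tumours above floxed ones, while for Itpr3 floxed tumour 1 at 9.05 CPM lies within the range of Hmgb1-deleted tumours.

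Against normal liver the same lists moved in both directions. In floxed tumours 3 of 10 store-operated entry genes were higher and 4 lower, and 3 of 11 chloride channel genes were higher and 4 lower. There 5 of 11 TRP and epithelial sodium channel genes were higher and 2 lower, and 6 of 16 pump and exchanger genes were higher and 3 lower. Over all genes 24.9% were called higher and 23.8% lower in that comparison. Scnn1a, a pore subunit of the epithelial sodium channel, fell to 3.00 ± 0.873 CPM in floxed tumours, against 51.6 ± 6.95 CPM in normal livers (log2 -4.08 ± 0.23, adjusted p = 1.53e-06). Clca1, a regulator of a calcium-activated chloride channel, was higher, with 30.1 ± 5.74 CPM in floxed tumours against 5.19 ± 0.797 CPM in normal livers (log2 2.55 ± 0.21, adjusted p = 1.25e-05). In Hmgb1-deleted tumours Scnn1a was at 11.4 ± 10.5 CPM (log2 -2.17 ± 0.75, adjusted p = 0.0488) and Clca1 at 18.7 ± 7.25 CPM (log2 1.87 ± 0.31, adjusted p = 0.00328). Hcn2, a pacemaker channel of brain and heart, was higher than normal liver in Hmgb1-deleted tumours (log2 2.88 ± 0.66, adjusted p = 0.0108) and in floxed tumours (log2 3.04 ± 0.67, adjusted p = 0.00393).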

How the data were processed

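Poly-A RNA was made into TruSeq libraries, per the labels' protocols. What the authors deposited is 1 table of raw counts, by gene symbol, of 15 libraries. bcl2fastq 1.8.4, TopHat2 2.1.0, Bowtie2 2.2.4, HTSeq 0.6.1 and mm9 were used, per the submitters' processing notes; their settings, and the annotation, strand and multi-mapping choices, are not stated in the sources at hand.

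Groups came from the sample labels. In R 4.3.3, each pair of groups was fitted over the whole table with edgeR 4.0.16 (filterByExpr, TMM factors, robust quasi-likelihood F test, group as the only term), with Benjamini-Hochberg adjustment over all genes tested and calls at an adjusted p under 0.05. CPM values are scaled by TMM over all 15 libraries, so levels can be compared between samples and not between genes. Standard errors come from the F statistic, and counting intervals and floors of 3 counts cover counting error only. Pairs of libraries within a group differed by a chi-square of at least 27.9 per degree of freedom, and none was taken as a repeat. The test was tried on simulated data with 200 changed genes. Over 13433 genes, simulated as Hmgb1-deleted against floxed tumours, it found 46% of the 2-fold and 81% of the 4-fold changes, with 3.79% false calls. These shares were 35%, 86% and 1.63% in the simulation of floxed tumours against normal liver, and 28%, 78% and 4.5% in that of Hmgb1-deleted tumours (13784 genes each). In the data 1045, 6714 and 4787 genes were called in these 3 comparisons. Such shares depend on how many genes change, so those of the simulation do not carry over to the data.

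Named members are, per comparison, up to 15 called higher and 15 lower with the smallest p, and the member with the highest mean CPM in each role class; from each related list, up to 2 called genes. Some members under this rule are counted but not reported here by name. Members and lists were chosen with earlier results of these data known. Promoters are RefSeq's on GRCm38.p6, another build than that of the counts, and were matched by symbol for 4 of 6 members sought (Cacna1b, Cacna1c, Scn8a and Kcnt2). Alternatives were RLE, upper-quartile or no scaling factors, no filter, at least 1 CPM, DESeq2 1.42.0, voom with sample weights (limma 3.58.1), all 15 libraries in 1 fit, a replicate block, each library left out, and Hmgb1-deleted tumours 2 and 5, or 3, 4 and 6, left out.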

Additional observations from a re-analysis of the deposited data

Results flagged for a closer look

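In 5 of 43 groups of 6 libraries looked at, 1 library stood apart from the others by the gap in log2(CPM + 1) to its nearest neighbour over the range of the group; chance alone gives this in about 5% of groups. Floxed tumour 5 had 59.1 CPM of Kcne3, against 1.72 to 5.71 CPM in the other floxed tumours. The same tumour had 5.15 CPM of Cacna2d1, against 1.55 to 2.26 CPM in the others. Floxed tumour 4 had 71.8 CPM of Scn8a, against 109.5 to 134 CPM in the others. Hmgb1-deleted tumour 5 had 0.416 CPM of Kcnt2, against 1.14 to 1.72 CPM in the other Hmgb1-deleted tumours. Hmgb1-deleted tumour 1 had 2.15 CPM of Cacnb4, against 3.09 to 3.66 CPM in the others.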

How the results depend on the processing

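For the named members and Hmgb1, 1587 alternative values kept their direction and their side of the threshold, 107 missed the threshold, 28 passed it anew and 0 of those called changed sign. Members called higher in Hmgb1-deleted than in floxed tumours numbered 2, but 1 with no filter, voom, the joint fit or without Hmgb1-deleted tumours 2 and 5, and 0 with at least 1 CPM, the replicate block or without Hmgb1-deleted tumours 3, 4 and 6. Members called higher in floxed tumours than in normal liver numbered 23, but 15 with at least 1 CPM. That filter leaves low members untested, Kcnt2 and Kcnrg among them between the tumour groups. The drops under it therefore do not count failed tests alone. Members called lower in Hmgb1-deleted tumours than in normal liver numbered 3, but 6 with DESeq2 or voom and 5 without Hmgb1-deleted tumours 3, 4 and 6. With each library left out in turn, Hmgb1-deleted against floxed tumours gave 4 to 7 called members (4 without Hmgb1-deleted tumour 4), 0 to 2 higher (0 without floxed tumour 1, floxed tumour 2 or Hmgb1-deleted tumour 4) and 4 to 6 lower. Floxed tumours against normal liver gave 22 to 30 called members, 16 to 24 higher and 5 to 8 lower. Hmgb1-deleted tumours against normal liver gave 7 to 21 called members, 5 to 17 higher and 2 to 4 lower, with 5, 7 and 6 higher without normal liver 1, 2 and 3, where only 2 normal livers remained. Over all genes, calls between the tumour groups numbered 1045, but 2063 with DESeq2, 1629 in the joint fit and 589 without Hmgb1-deleted tumour 4. DESeq2's false calls were 22.2% in the simulation with 200 changed genes, a share that does not carry over to these calls. Same-numbered libraries had correlations of deviations from -0.2 to 0.18. Such weak values cannot show whether these libraries shared a litter or a day, which the labels do not state. With that number as a replicate block the calls were 0 higher and 5 lower, 22 higher and 10 lower, and 12 higher and 3 lower in the 3 comparisons in the order above. Hmgb1 stayed lower in Hmgb1-deleted than in floxed tumours under every alternative (adjusted p up to 0.0277). The cause of these changes was not tested. Depth limits the members under 1 CPM, whose absence cannot be shown.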
